A study of Mus musculus with 12 samples.

Results

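Homeostatic microglia genes are the genes by which microglia of the healthy adult brain are recognised, and 9 of them were followed here through bulk RNA from mouse cortex. The 9 genes, P2ry12, Tmem119, Cx3cr1, Csf1r, Sall1, Siglech, Gpr34, Aif1 and Selplg, were taken by name from the gene column of the transcript annotation that came with the data, and their transcripts were summed to genes. All 9 were found, among 36047 genes in the whole table.

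The study sequenced polyA RNA of dissected cortex from 12 mice, 3 for each of 4 groups: wild type (WT) at 4 months, Gde2KO at 4 months, WT at 19 months and Gde2KO at 19 months. Gde2KO mice come from the Gde2-/- line, in which the gene of the surface enzyme GDE2 (gene symbol Gdpd5) is disrupted throughout the body and not in microglia alone. GDE2 is a membrane enzyme that releases GPI-anchored proteins from the cell surface. Each age is a separate set of animals, and the study asked what loss of GDE2 changes in the cortex and when. Males and females were used in the study, and the labels do not give the sex of a library.

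Microglia are the resident macrophages of the brain. They arise from yolk sac progenitors, depend on signalling through CSF1R to survive, and keep their identity through transcription factors that act with PU.1 and through transforming growth factor beta from neighbouring cells. In the resting state they survey the tissue with fine processes and carry a set of surface receptors, P2RY12 and CX3CR1 among them, that read signals from neurons and injured cells. Upon injury, ageing and amyloid or myelin damage some microglia lower these genes and raise a disease-associated programme that includes Spp1, Clec7a and Cst7.

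Values are normalized counts, that is estimated read counts divided by a library size factor by the authors, unless TPM, a measure that allows for transcript length, is named. The TPM were scaled by library as well and are not shares. They summed to 887748 in WT library B at 19 months, the lowest total. The highest, 1472300, was that of Gde2KO library 3 at 4 months. Counts by library are compared between groups for 1 gene at a time, and levels of different genes are compared in TPM. The 6 libraries at 4 months held 46434270 to 59728494 estimated reads. At 19 months 4 libraries held 36915259 to 44604721, while WT library A held 6734475 and Gde2KO library A held 3707928, so that 1 read there stood for 4.66 and 8.29 normalized counts. Age and library set cannot be told apart in this design. Gdpd5, the targeted gene, measured 684, 702 and 1199 in WT and 417, 585 and 403 in Gde2KO at 4 months, and 1065, 1129 and 952 in WT and 441, 456 and 560 in Gde2KO at 19 months, so the genotype labels separated without overlap at each age. Reads over Gdpd5 therefore remained in Gde2KO libraries, and the difference passed the test at 19 months (adjusted p = 0.0111, limma) but not at 4 months (adjusted p = 0.463). Sums over striatal marker genes were 251.5 and 134 TPM in 4-month WT libraries 1 and 2, against 1010 to 2486 TPM in the other 4 libraries of that age, and sums over hippocampal markers were 547 and 505 TPM against 258 to 353 TPM. At 19 months the striatal sums were 226 to 662 TPM and the hippocampal sums 250 to 312.5 TPM. The 4-month libraries with striatal sums of 1010 to 2486 TPM thus lay above every 19-month library. The part of this in the comparison of ages was not tested. WT libraries 1 and 2 of 4 months had the highest hippocampal sums of all 12 libraries. They stood apart from the others of their age in the regions they held. Results at 4 months are given with and without them. Without them WT library 3 stands alone for WT at 4 months, so such fits hold no spread between its libraries.

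PU.1, the factor encoded by Spi1 that defines macrophages, binds a purine-rich box with the letters GAGGAA. Promoter windows of 300 bases, 250 before to 50 after a RefSeq start site (GRCm38.p6), were held for 5 of the 9 members, with 7 windows between them, namely P2ry12, Siglech, Cx3cr1, Aif1 and 3 for Sall1. For Sall1, Cx3cr1 and Siglech a window's start site lay within 100 bases of the 5′ ends of transcripts that made up 100%, 97.8% and 100% of the gene's summed TPM, so these windows stand before the RNA measured here and are printed. The window of P2ry12 was 42726 bases before the 5′ end of its most abundant transcript and that of Aif1 was 3233 bases before it, and these are not printed. All are written 5′ to 3′ along the gene, on the gene's own strand, and capitals mark the box or its reverse complement TTCCTC:
Sall1 (chr8:89044113-89044412, minus strand): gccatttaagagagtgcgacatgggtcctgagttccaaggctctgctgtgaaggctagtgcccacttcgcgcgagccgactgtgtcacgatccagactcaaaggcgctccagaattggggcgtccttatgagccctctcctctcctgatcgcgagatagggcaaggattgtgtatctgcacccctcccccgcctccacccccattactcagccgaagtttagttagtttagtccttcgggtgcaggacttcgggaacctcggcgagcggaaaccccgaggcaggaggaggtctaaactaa
Cx3cr1 (chr9:120068247-120068546, minus strand): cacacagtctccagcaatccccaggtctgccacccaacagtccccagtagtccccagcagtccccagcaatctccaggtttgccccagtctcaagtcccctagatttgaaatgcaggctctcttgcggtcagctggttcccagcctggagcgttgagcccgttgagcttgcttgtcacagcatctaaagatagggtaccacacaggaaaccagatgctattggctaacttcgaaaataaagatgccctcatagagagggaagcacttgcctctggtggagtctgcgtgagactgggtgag
Siglech (chr7:55767934-55768233, plus strand): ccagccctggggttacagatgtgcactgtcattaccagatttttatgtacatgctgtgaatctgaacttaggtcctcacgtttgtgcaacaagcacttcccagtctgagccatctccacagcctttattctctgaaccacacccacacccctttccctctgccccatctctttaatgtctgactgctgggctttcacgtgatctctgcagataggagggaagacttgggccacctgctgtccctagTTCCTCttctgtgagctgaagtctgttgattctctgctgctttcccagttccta
The box stood in the Siglech window, its leading base at -4 from the start site, and in the Aif1 window at -7. It was found in neither the Sall1 windows nor those of Cx3cr1 and P2ry12. These 2 of 7 windows compare with 28.3% of the 32851 RefSeq windows of 300 bases, both strands searched, so the letters were about as frequent among the members as elsewhere.

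All 9 members were detected in each of the 12 libraries. In TPM over all libraries the levels ran from Csf1r (32.6 ± 4.29, SD, n = 12), the growth factor receptor, through P2ry12 (28.5 ± 9.70), a receptor for ADP, and Selplg (27.3 ± 3.03), a ligand of selectins, to Tmem119 (18.4 ± 3.24), a membrane protein of microglia, and Cx3cr1 (17.1 ± 1.99), the fractalkine receptor. Siglech (14.1 ± 3.10), a sialic acid binding lectin, and Aif1 (12.96 ± 4.13), which encodes the actin-binding protein IBA1, came next, and Gpr34 (8.07 ± 3.65), a receptor for lysophosphatidylserine, and Sall1 (6.21 ± 1.10), a transcription factor that keeps microglial identity, were lowest. Each member's range over the 12 libraries overlapped that of the next in this order, so only wide steps in it stand beyond the spread. In WT at 4 months P2ry12 had the highest mean (29.6 ± 1.29 TPM, n = 3) and Gpr34 (8.67 ± 0.487 TPM) stood above Sall1 (5.54 ± 0.543 TPM) without overlap. In WT at 19 months P2ry12 (21.2 ± 5.06 TPM) came after Csf1r and Selplg, and Gpr34 (5.16 ± 1.21 TPM) overlapped Sall1 (5.59 ± 0.720 TPM). Cx3cr1 varied least across the libraries, its highest level being 1.42 times its lowest, and Gpr34 varied most, with 4.24 times. The highest Gpr34 level was that of Gde2KO library 3 at 4 months, the library with the highest TPM total.

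The members lie on 8 chromosomes of the GRCm38 build (GENCODE vM21), with Tmem119 (chr5:113793729-113800516, minus strand) and Selplg (chr5:113818536-113832644, minus strand) 18.0 kb apart. The others are P2ry12 (chr3:59216272-59262871, minus strand), Siglech (chr7:55768178-55778925, plus strand), Sall1 (chr8:89027235-89044162, minus strand), Cx3cr1 (chr9:119901616-120069879, minus strand), Aif1 (chr17:35170991-35176068, minus strand), Csf1r (chr18:61100598-61132149, plus strand) and Gpr34 (chrX:13632089-13640858, plus strand). Siglech is on the chromosome of Gdpd5, 43.6 Mb away from it.

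The cortex was also searched for macrophages of other kinds. The members summed to 137 to 232 TPM per library at 4 months and 144 to 179 TPM at 19 months. The 232 TPM belonged to Gde2KO library 3, whose TPM total was the highest. A list of 16 genes of border macrophages, monocytes and neutrophils summed to 30.1 to 48.7 TPM at 4 months and 39.6 to 133 TPM at 19 months. Of its defining markers Ccr2, the chemokine receptor of monocytes, stayed between 0.411 and 1.08 TPM in all 12 libraries. Ly6c2, also on the list, did not stay level and was at 0.426 to 0.749 TPM at 4 months. At 19 months it was at 1.45 to 2.35 TPM in WT and at 0.182 to 1.29 TPM in Gde2KO, lowest in the shallow library A. Plac8 was at or under 0.467 TPM at 4 months and at 0.971 to 3.85 TPM at 19 months. Neutrophil genes differed among the 19-month libraries. S100a9 was at 18.4, 12.7 and 3.24 TPM in WT and at 0, 2.04 and 3.53 TPM in Gde2KO, S100a8 at 7.0, 9.34 and 2.73 TPM and at 0, 1.02 and 2.34 TPM, and Lcn2 at 33.8, 35.0 and 4.25 TPM and at 1.41, 6.91 and 19.0 TPM. At 4 months S100a8, S100a9 and Lcn2 stayed at or under 1.55 TPM. The part of these cells in the members' values was not tested. In bulk tissue fewer microglia and less of a transcript per microglial cell cannot be told apart.

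**Figure D1:**
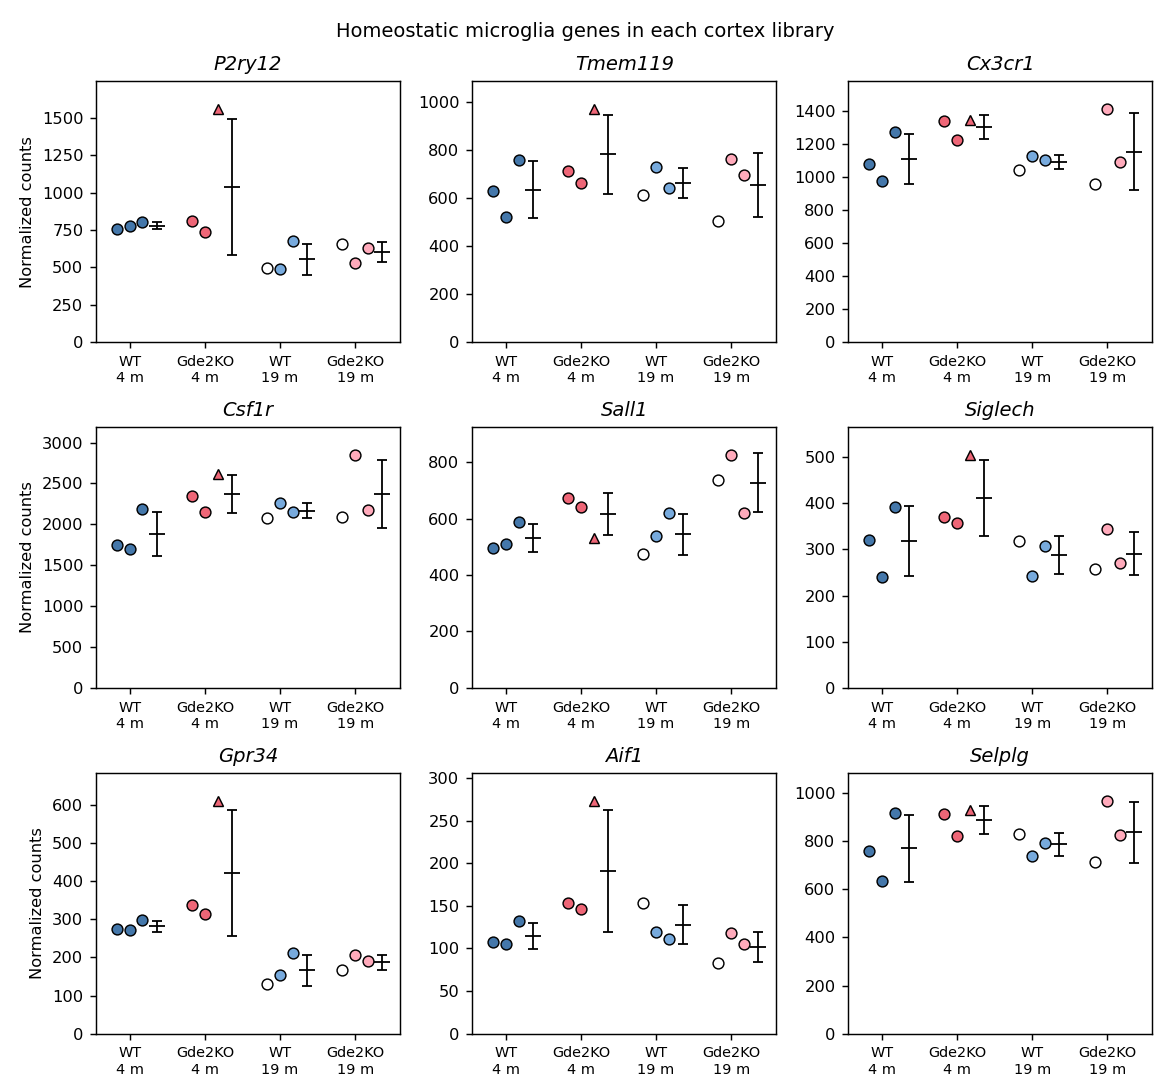
Each panel plots 1 homeostatic microglia gene, with normalized counts on the vertical axis and the 4 groups (WT and Gde2KO at 4 and 19 months, 3 libraries each) on the horizontal axis. Points are libraries, bars to their right give the mean and SD, triangles mark Gde2KO library 3 at 4 months and open circles the 19-month libraries of lowest depth (WT and Gde2KO library A). For P2ry12 and Gpr34 all 6 libraries at 19 months lie below all 6 at 4 months, and the triangle lies far above the other libraries for P2ry12, Gpr34 and Aif1.

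The comparison of genotypes at 4 months asks whether loss of GDE2 had altered the microglial genes before the animals aged. All 9 members had a higher mean in Gde2KO, by 0.21 to 0.68 on the log2 scale, and none passed the test, which asked for an adjusted p under 0.1 and a natural log change over 0.5 (0.721 on the log2 scale). Adjusted p ran from 0.463 to 0.577, and 0.126% of the 19035 genes tested were called. An unadjusted p under 0.05 was found for 2 of 9 members (Aif1 and Csf1r) and for 10.6% of all genes. The median member stood at 0.33 and the median of all genes at 0.11, so the table as a whole was shifted the same way by less.

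Aif1, the gene of IBA1 by which microglia are usually stained, showed the widest difference. It measured 107, 105 and 133 in WT and 153, 146 and 273 in Gde2KO, a log2 difference of 0.68 (SE 0.27, 95% CI 0.05 to 1.30). Every Gde2KO library was above every WT library, and the exact permutation test gave p = 0.1, two-sided, the smallest that 3 against 3 allow. Gpr34 measured 273, 272 and 299 in WT and 337, 314 and 610 in Gde2KO, again without overlap, with a log2 difference of 0.51 (SE 0.25, CI -0.08 to 1.10). Groups that do not overlap were thus found for 2 of 9 members and for 15.4% of all genes.

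The remaining members overlapped between genotypes at 4 months. Csf1r measured 1750, 1698 and 2188 in WT and 2346, 2156 and 2614 in Gde2KO, and only WT library 3 reached the range of Gde2KO (log2 difference 0.34, SE 0.15). P2ry12 measured 755, 780 and 804 in WT and 811, 740 and 1559 in Gde2KO, so its mean difference of 0.33 (SE 0.27) came from a single library. Without that library, Gde2KO library 3, it was -0.01 (adjusted p = 0.992), that of Gpr34 was 0.21 and that of Aif1 was 0.39, while that of Sall1 was 0.31 in place of 0.21. Leaving out WT libraries 1 and 2, whose striatal and hippocampal markers stood apart, set the Gde2KO libraries against WT library 3 alone. These differences thus rest on a single WT library and cannot tell a genotype effect from that library's own level. Selplg turned to -0.05, and Tmem119, Cx3cr1, Siglech and Sall1 lay between 0.02 and 0.06. Csf1r was at 0.11, and P2ry12, Gpr34 and Aif1 were at 0.28, 0.43 and 0.46.

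Gde2KO library 3 stood out in some members and not in others. Against the mean of the other Gde2KO libraries of its age it held 2.01 times as much P2ry12, 1.87 times as much Gpr34 and 1.83 times as much Aif1, then 1.41 times as much Tmem119 and 1.39 times as much Siglech. Csf1r, Selplg and Cx3cr1 were at 1.16, 1.07 and 1.05 times, and Sall1 was lower, at 0.808 times. The members with long transcripts were those least raised: mean lengths were 3873 nt for Csf1r, 3771 nt for Cx3cr1 and 5265 nt for Sall1, against 826 nt for Aif1 and 2000 nt for P2ry12, although Selplg, at 1866 nt, was an exception. Over all genes the same library's median log2 difference was 0.42 for mean lengths under 1000 nt and 0.44 for 1000 to 2000 nt, then 0.26 and 0.13 up to 3000 and 4000 nt, and -0.04 over 4000 nt. The part of transcript length in the high values was not tested.

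**Figure D2:**
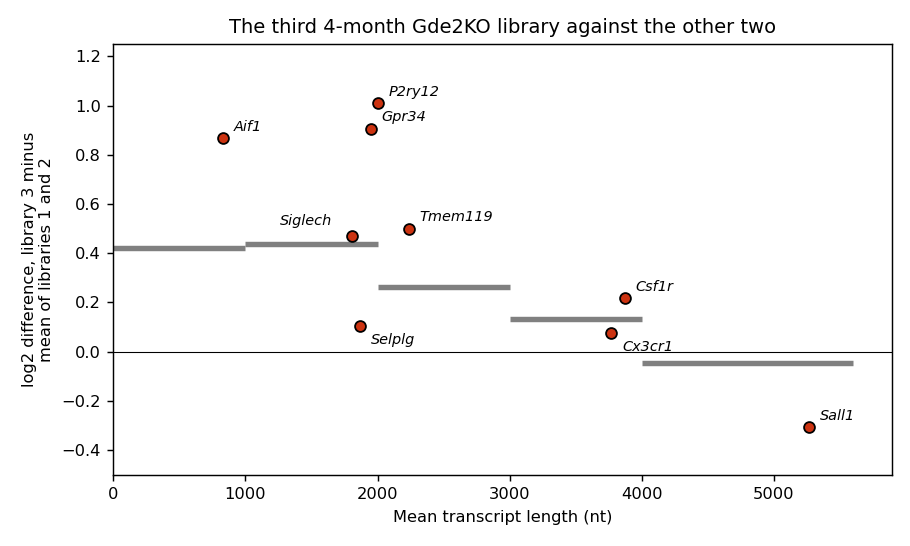
The log2 difference between Gde2KO library 3 at 4 months and the mean of Gde2KO libraries 1 and 2 (vertical axis) is plotted against mean transcript length in nucleotides (horizontal axis) for the 9 members (points), with the median of all genes in each length class as grey bars. P2ry12, Gpr34 and Aif1 lie at 0.87 to 1.01, above the bars of their length classes at 0.42 to 0.44 and 0.26, and Sall1 lies at -0.31.

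At 19 months the comparison of genotypes asks whether the Gde2KO cortex, at the age at which the study examined loss of TDP-43, had lost or gained homeostatic microglial RNA. No member passed the test. The log2 differences ran from -0.33 to 0.42 with a median of 0.08, 7 of 9 were positive, and adjusted p ran from 0.645 to 0.992. Over all 18583 genes tested 0.0969% were called, and the median was at -0.02. An unadjusted p under 0.05 was found for 1 of 9 members (Sall1) and for 6.91% of all genes.

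Sall1, which holds microglia apart from other macrophages and is also expressed outside microglia, was the member with the clearest order. It measured 475, 538 and 619 in WT and 738, 826 and 619 in Gde2KO. WT library C and Gde2KO library C lay within 0.128 normalized counts of each other, and the groups did not overlap by that margin alone (log2 difference 0.42, SE 0.14, CI 0.11 to 0.73; exact permutation p = 0.1, the smallest possible). Groups without overlap were found for 1 of 9 members and for 14.2% of all genes.

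The other surface receptors were close between genotypes at 19 months. Gpr34 measured 130, 155 and 211 in WT and 166, 205 and 191 in Gde2KO (0.20, SE 0.20), and P2ry12 measured 499, 492 and 674 in WT and 655, 527 and 626 in Gde2KO (0.13, SE 0.14). For both receptors the highest library was a WT library. Csf1r (0.12, SE 0.11), Cx3cr1 (0.06, SE 0.13) and Selplg (0.08, SE 0.12) each had their highest value in Gde2KO library B, 2850, 1410 and 968, and without it their differences were -0.02, -0.09 and -0.03. Tmem119 (-0.04, CI -0.39 to 0.31) and Siglech (0.01, CI -0.36 to 0.38) lay near 0, with intervals that leave room for changes of about that width in either direction.

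The differences of Aif1 and Tmem119 had opposite signs at the 2 ages, and that of Aif1 lay further from 0, lower in Gde2KO at 19 months. Aif1 measured 154, 119 and 111 in WT and 82.9, 118 and 105 in Gde2KO (-0.33, SE 0.21, CI -0.81 to 0.16). The extreme values were those of the library A of each genotype, the shallow ones, where they rested on 33 and 10 estimated reads. The difference between the genotype effects at 19 and 4 months, tested as an interaction over all 12 libraries, was -1.0 (SE 0.36, CI -1.78 to -0.22, adjusted p = 0.368) and did not pass. It was -0.71 without Gde2KO library 3 of 4 months, -0.72 without the library A of each genotype and -0.43 without all of these. Over the 22 alternatives it ran from -1.16 to -0.43. With limma's weights for library quality it was -0.69 (adjusted p = 0.00678) and passed.

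No member passed the interaction test, in which a call needed an adjusted p under 0.1 and 0.048% of 18731 genes had one. The sign was mostly the same: 8 of 9 members were negative, from -1.0 to -0.14, with Sall1 at 0.21, beside a median of -0.22 for the members and -0.15 for all genes. Only Aif1, 1 of 9, had an unadjusted p under 0.05, as did 12.9% of all genes. With limma's weights for library quality 5 members (Tmem119, Cx3cr1, Csf1r, Aif1 and Selplg) passed, as did 8744 of all genes.

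**Figure D3:**
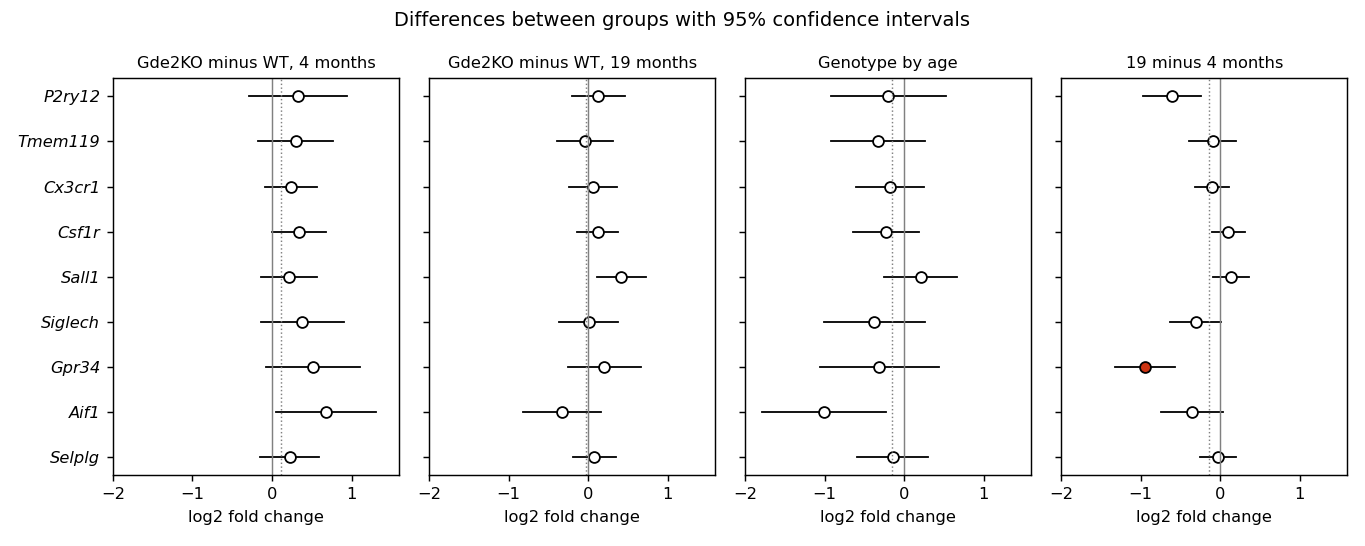
The 4 panels give the log2 fold change of each member (points) with its 95% confidence interval (lines) for Gde2KO minus WT at 4 and at 19 months, the genotype by age interaction, and 19 minus 4 months. The dotted line is the median of all genes tested and the filled point is the single call, Gpr34 at 19 against 4 months, at -0.95.

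Between 4 and 19 months, with both genotypes pooled, Gpr34 was the member that fell and the other members did not pass the test. Gpr34 encodes a receptor for lysophosphatidylserine that microglia carry at high levels. Its 6 libraries at 4 months had a lowest value of 272, a median of 306 and a highest of 610, and its 6 libraries at 19 months had 130, 178 and 211. No 19-month library reached the lowest 4-month library. The log2 change was -0.95 (SE 0.17, CI -1.32 to -0.57, adjusted p = 0.00204), a fold of 0.519 (CI 0.400 to 0.673), and the exact permutation test over libraries gave p = 0.00216, the smallest that 6 against 6 allow. In this comparison 14% of all genes were called, 9.49% lower and 4.52% higher at 19 months, and the call rate among the members, 1 of 9, was not above it.

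P2ry12, the ADP receptor by which microglial processes find injured cells, had the next widest difference. Its lowest, median and highest values were 740, 792 and 1559 at 4 months and 492, 577 and 674 at 19 months, and again no libraries overlapped. In TPM the ages did overlap. The lowest 4-month level was 28.5 TPM and the highest 19-month level was 29.2 TPM, in the shallow Gde2KO library A. The log2 difference was -0.61 (SE 0.17, CI -0.97 to -0.24, adjusted p = 0.0147), a fold of 0.657, which met the p threshold but not the size threshold of 0.721. Members whose ages did not overlap in normalized counts were thus 2 of 9, and 19.2% of all genes had no overlap. The median change of all genes was -0.15, so both receptors stood well below it.

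Both differences were seen within each genotype. Gpr34 changed by -0.79 (SE 0.24, adjusted p = 0.0421) among WT libraries and by -1.10 (SE 0.24, adjusted p = 0.013) among Gde2KO libraries. For P2ry12 the values were -0.51 (SE 0.23, adjusted p = 0.149) and -0.70 (SE 0.23, adjusted p = 0.0511), and the interactions, -0.31 and -0.20, did not pass. The highest 4-month value of both genes came from Gde2KO library 3, without which the changes were -0.80 (adjusted p = 0.00135) for Gpr34 and -0.44 (adjusted p = 0.00698) for P2ry12. The shallow 19-month libraries held only 28 and 20 estimated reads of Gpr34. When they were left out the changes were -0.83 and -0.60, and when Gde2KO library 3 was left out as well they were -0.67 (adjusted p = 0.00392) and -0.43 (adjusted p = 0.0167), which for Gpr34 is short of the size threshold.

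The other 7 members did not pass between ages. Siglech had a median of 364 at 4 months and 289 at 19 months (-0.31, SE 0.15, adjusted p = 0.116) and Aif1 139 and 114 (-0.35, SE 0.18, adjusted p = 0.138). Their ranges overlapped. For Aif1 the difference between ages was 0.15 among WT libraries and -0.85 among Gde2KO libraries, and the contrast between these values is the interaction given above. Csf1r (0.10, CI -0.11 to 0.31), Sall1 (0.13, CI -0.09 to 0.36), Cx3cr1 (-0.10, CI -0.32 to 0.11), Tmem119 (-0.09, CI -0.39 to 0.20) and Selplg (-0.03, CI -0.25 to 0.20) had intervals that hold 0, and for Tmem119, Cx3cr1 and Selplg the sign turned when libraries were scaled by medians of ratios. Csf1r, the gene of the receptor on which microglia depend for survival, was thus among the members with the narrowest intervals.

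Each member was also set against the other members of the same library. The measure was the log2 level of a member minus the mean log2 level of the other 8, so that any scaling of the library cancels. Gpr34 lay at -1.19 to -0.53 at 4 months and at -2.15 to -1.51 at 19 months, without overlap, a difference of -0.79 in place of -0.95. P2ry12 lay at 0.32 to 0.99 and at -0.22 to 0.52, with overlap, a difference of -0.41 in place of -0.61. Csf1r lay at 1.83 to 2.08 at 4 months and at 2.26 to 2.51 at 19 months, and Selplg at 0.15 to 0.62 and at 0.64 to 0.85, both higher at 19 months without overlap. Because the mean of the others contains Gpr34 and P2ry12, a part of the shift of Csf1r and Selplg is built into the measure, as is a somewhat wider spread among the members. Siglech kept its place, at -1.13 to -0.75 and -1.15 to -0.71, and Tmem119, Cx3cr1, Sall1 and Aif1 overlapped.

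**Figure D4:**
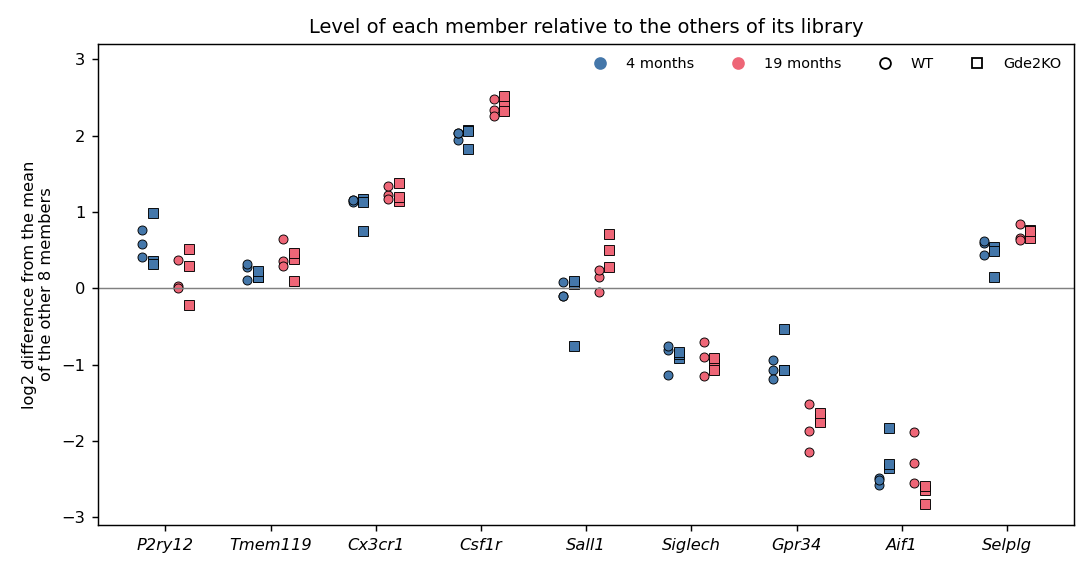
For each of the 9 members the log2 level relative to the mean of the other 8 in the same library is on the vertical axis, with 4-month libraries in blue and 19-month libraries in red, circles for WT and squares for Gde2KO. Gpr34 has no overlap between ages, with -1.19 to -0.53 against -2.15 to -1.51, and Csf1r and Selplg have none in the other direction.

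Across the 12 libraries the members did not move as a single block. Over 36 pairs the Pearson correlation of log2 values had a median of 0.58 and ran from -0.29 (Sall1 with Aif1) to 0.94 (P2ry12 with Gpr34). After the 4 group means were removed the median was 0.55, and P2ry12 with Gpr34 stood at 0.86 while Cx3cr1 with Csf1r stood highest at 0.94. The neighbours Tmem119 and Selplg correlated at 0.79. Sall1 correlated with no other member above 0.58 (Csf1r). The 12 libraries share their size factors and the high Gde2KO library 3, so these values describe the libraries and were given no test.

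Among the genes most like the mean profile of the members, of 18722 genes, were Tsc22d4 (r = 0.955), a leucine zipper protein, Rgs10 (0.955), a regulator of G protein signalling, Suclg2 (0.948), a subunit of a mitochondrial succinyl-CoA ligase, and Clp1 (0.945), an RNA kinase. Rgs10 is itself on the list of other homeostatic microglia genes, of which 3 of 31 were among the 100 genes most alike. The 31 had a median correlation of 0.58 with the profile, against 0.29 over all genes. The profile itself was highest in Gde2KO library 3 of 4 months, at 0.58, and between -0.25 and 0.21 in the other 11 libraries.

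Transcripts within the members were examined for changes of use. P2ry12 was spread over 5 transcripts, the largest shares of its TPM being 47.5% for 1 of 2101 nt and 35.0% for a short 1 of 619 nt. Gpr34 had 2, of 1898 and 2088 nt, with 76.3% and 23.7%. Csf1r (91.4%), Cx3cr1 (97.1%), Tmem119 (97.2%) and Selplg (93.0%) were carried by their main transcript, and Sall1 has a single transcript. Siglech put 44.2% in a coding transcript of 833 nt and 29.6% in a transcript of 2117 nt annotated for nonsense-mediated decay. For Aif1 the coding transcripts of 842 and 847 nt, which differ little in sequence, held 65.0% and 21.5%, and the share of the longer of these ranged from 0 to 81.3% among libraries.

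No member was called for its use of transcripts between genotypes. At 4 months 7 members could be tested and none was called, as against 0.997% of 12235 genes, and at 19 months none of the 7 was called, as against 0.171% of 12253 genes. The widest shift was in Aif1 at 19 months, where the share of the 842 nt transcript was 44.5 ± 39.6% in WT and 84.1 ± 14.9% in Gde2KO (SD, n = 3), with an adjusted p of 0.711. Its unadjusted p, from limma's test of differential splicing, was 0.0175, the single member value under 0.05 at either age. Tmem119 and Sall1 had fewer than 2 transcripts above the level needed for a test.

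Other genes of microglia were examined to see what surrounds the members. Of 31 further homeostatic genes none was called at 4 months (median log2 difference 0.46, 25 positive, 8 with an unadjusted p under 0.05), at 19 months (median -0.09, 9 positive, 2 under 0.05) or for the interaction (median -0.42, 4 under 0.05). The lowest adjusted p fell to Ly86 at 4 months (0.67, SE 0.23, adjusted p = 0.463), a partner of a toll-like receptor family protein, and to Adgrg1 at 19 months (-0.26, SE 0.08, adjusted p = 0.614), an adhesion receptor of microglia. Between ages 2 of 31 rose, Lag3 (1.08, SE 0.34, adjusted p = 0.0259) and Upk1b (1.13, SE 0.40, adjusted p = 0.0421), none fell, and the median was 0.03. Of all genes 4.52% were called higher at 19 months and 9.49% lower. Lag3 was at 92.7 to 144 normalized counts at 4 months. At 19 months it was at 177, 283 and 228 in WT and at 108, 650 and 223 in Gde2KO. Without 4-month WT libraries 1 and 2 only Lag3 was called. Without WT library 3, which leaves those 2 as the 4-month WT group, Golm1 (-2.04, SE 0.22) and Pmepa1 (1.39, SE 0.14) were called at 4 months and, with Fcrls, for the interaction. Lag3 is an immune checkpoint receptor and Upk1b a uroplakin, and neither is a purinergic or lipid receptor.

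Transcription factors of microglia were likewise uncalled between genotypes, with 0 of 15 at 4 months (1 with an unadjusted p under 0.05), 0 at 19 months (0) and 0 for the interaction (0). At 4 months the lowest p fell to Irf8 (0.54, SE 0.15, adjusted p = 0.463), a factor that microglia need to develop. Between ages Runx1, a factor of blood and macrophage development, rose. It stood at 26.6 to 56.4 normalized counts in the 4-month libraries and at 58.0 to 109 at 19 months, without overlap (0.95, SE 0.20, adjusted p = 0.00408), and it was called in each of the 15 fits that left out libraries. Spi1 itself was at 0.29 (SE 0.21, adjusted p = 0.285).

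The ligands and partners of the members, 23 genes with 22 in the table, included 0 calls for genotype at 4 months (19 tested, 7 with an unadjusted p under 0.05), 0 at 19 months (22 tested, 3) and 0 for the interaction (22 tested, 4). Cx3cl1, the neuronal ligand of CX3CR1, had the lowest p at 4 months (0.48, SE 0.16, adjusted p = 0.463). Abhd16a, which makes lysophosphatidylserine, the ligand of GPR34, had the lowest p at 19 months (-0.21, SE 0.06, adjusted p = 0.614) and for the interaction (-0.63, SE 0.19, adjusted p = 0.368). Without 4-month WT library 3 there were 2 calls at 4 months (Nt5e and Tgfb2) and 5 for the interaction, namely these 2, Cx3cl1, Abhd16a and Entpd3. Between ages some rose and 2 fell. Among the genes that rose were the selectins Sele and Selp, for which the product of Selplg is a ligand, and Pla1a, a phospholipase that makes lysophosphatidylserine. Sele was at or under 0.721 normalized counts in every 4-month library and between 8.29 and 48.3 at 19 months, and Selp was at 0.627 to 2.99 and 12.3 to 41.5. Neither reached 5 at 4 months, so both passed the filter only through the 19-month libraries. A rise was thus the only outcome open to them, and their calls carry no weight. The 8.29 of Sele was a single read in Gde2KO library A. When a 19-month library was left out, whichever it was, too few libraries reached the filter for Sele and Selp to be tested, and without WT library B 3 calls were left (Pla1a, Nt5e and Tgfb2).

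Pla1a stood at 13.3 to 37.0 normalized counts at 4 months and 41.5 to 64.4 at 19 months (1.18, SE 0.29, adjusted p = 0.00898), without overlap. Nt5e, which turns AMP into adenosine at the cell surface, downstream of the ADP that P2RY12 reads, fell (-0.79, SE 0.21, adjusted p = 0.0124). Tgfb2 fell (-1.32, SE 0.40, adjusted p = 0.0221), its mean being 1588 in WT at 4 months and 361 in Gde2KO at 4 months, with the 2 regionally distinct WT libraries in the former mean, and without these it was not called. The ligands of CSF1R, Csf1 (0.27, SE 0.08, adjusted p = 0.02) and Il34 (-0.19, SE 0.10, adjusted p = 0.143), were not called.

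Genes of disease-associated microglia were not called for genotype at 4 months (0 of 23, 1 with an unadjusted p under 0.05), at 19 months (0 of 23, 3) or for the interaction (0 of 23, 3). Without Gde2KO library B 3 were called at 19 months, all lower in Gde2KO: Clec7a (-3.80, SE 0.36, adjusted p = 0.00651), Ccl6 (-1.90, SE 0.22, adjusted p = 0.0209) and Spp1 (-0.79, SE 0.10, adjusted p = 0.0234), and Clec7a was called for the interaction. Without 4-month WT library 3 Gpnmb was called at 4 months (-1.40, SE 0.34) and Ctsb and Spp1 for the interaction. Between ages 8 of 23 rose and none fell, with a median of 0.26, and 5 rose without 4-month WT libraries 1 and 2 (Gpnmb, Spp1, Clec7a, Lyz2 and Ccl6). The 6 of lowest adjusted p were Gpnmb (3.62, SE 0.35), Spp1 (1.87, SE 0.33), Clec7a (2.93, SE 0.62), Lyz2 (1.45, SE 0.35), Cd68 (0.74, SE 0.18) and Ccl6 (1.51, SE 0.37), with adjusted p from 3.96e-05 for Gpnmb to 0.00902 for Ccl6. Gpnmb was at 53.7 to 213 normalized counts at 4 months and 348 to 1800 at 19 months. Clec7a was at 163, 145 and 190 in WT and 8.29, 214 and 15.6 in Gde2KO at 19 months, against 6.58 to 14.9 at 4 months. It was thus low in Gde2KO library C as well as in the shallow library A, where 8.29 is a single read. In these libraries Ccl6 (49.8 and 48.4) and Lyz2 (141 and 344) also lay within their 4-month ranges, 33.9 to 74.5 and 106 to 354. The rises of Clec7a, Ccl6 and Lyz2 thus came from WT and Gde2KO library B. Spp1 and Gpnmb stood above their 4-month ranges in all 6 libraries. The part of the disease-associated genes in the change of Gpr34 was not tested.

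The border macrophage, monocyte and neutrophil list had no call for genotype at 4 months (12 tested, 0 with an unadjusted p under 0.05), at 19 months (16 tested, 4) or for the interaction (14 tested, 3). Mrc1 was called at 19 months without Gde2KO library B (-1.47, SE 0.17, adjusted p = 0.019) and for the interaction without 4-month WT library 3. Between ages 6 of 14 rose, among them Cbr2 (2.46, SE 0.29, adjusted p = 0.000171), an enzyme of border macrophages, and Mrc1 (1.32, SE 0.33, adjusted p = 0.0101), their mannose receptor. In Gde2KO libraries A and C of 19 months Mrc1 was at 99.5 and 122 normalized counts, within its 4-month range of 31.7 to 157. Lcn2, S100a4 and S100a9 also rose, of which S100a9 was at 0 in 1 library of the 6. Plac8 was called as well, at 0 to 4.12 normalized counts at 4 months and 8.29 to 34.7 at 19 months. It passed the filter only through the 19-month libraries, so a rise was the only outcome open to it. Its 8.29 was a single read in Gde2KO library A. The list's rise and the fall of Gpr34 went together with age, and the part of the former in the latter was not tested.

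**Figure D5:**
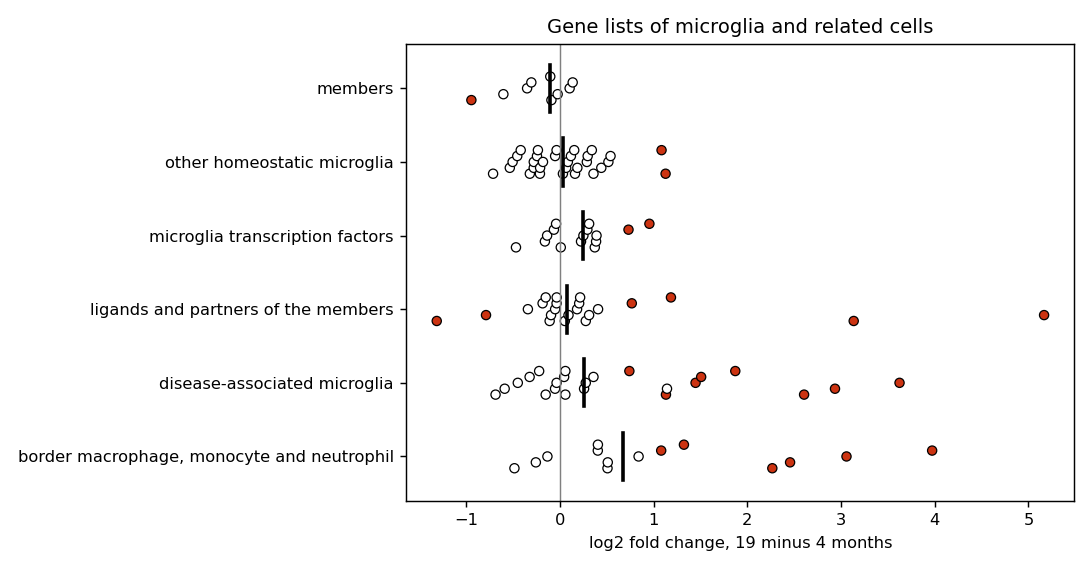
The log2 fold change from 4 to 19 months (horizontal axis) is plotted for every tested gene of 6 lists (rows), with called genes filled in red and the list median as a bar. Gpr34 is the single filled point among the members, at -0.95, while the called genes of the disease-associated list, 8 of 23, all lie above 0.

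Markers of the other cells of the cortex gave the setting of these values. For genotype at 4 months no list of neurons, astrocytes, oligodendrocytes, their precursors, endothelial cells, choroid plexus, dividing cells, striatum, hippocampus or blood had a called gene, and at 19 months the hippocampal gene Fibcd1 (1.44, SE 0.15, adjusted p = 0.0111) was the only call. Between ages calls were made, among others, for Aqp4 of astrocytes (-1.22, SE 0.13) and Gpr17 of oligodendrocyte precursors (-1.19, SE 0.13), both lower, and for Aqp1 of the choroid plexus (3.18, SE 0.33) and Hba-a1 of blood (1.24, SE 0.33), both higher. Of the other choroid plexus genes Kcne2 was higher (1.64, SE 0.40) and Kl was lower (-0.77, SE 0.30, adjusted p = 0.0574). Kcne2 was at 1.19 to 6.90 normalized counts at 4 months and 8.29 to 11.9 at 19 months, 8.29 being a single read in Gde2KO library A. Most of its 4-month values were under the 5 of the filter, which it passed only through the 19-month libraries. The call of Kcne2 therefore carries no weight. Kl was at 708 and 599 in 4-month WT libraries 1 and 2. It was at 120 to 158 in the other 4-month libraries and 114 to 168 at 19 months. Striatal genes were called in 6 of 8 cases and hippocampal genes in 4 of 9, all lower at 19 months, beside the differing sums over these markers given above. Among dividing cell genes Ccnb1 (1.06, SE 0.28) and Cdk1 (1.22, SE 0.34) rose, and no neuronal or endothelial gene was called, the lowest adjusted p being 0.00318 for Gad2 (-0.48, SE 0.10) and 0.00792 for Flt1 (0.49, SE 0.12), short of the size threshold. No gene of these lists was called for the interaction.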

How the data were processed

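The authors mapped 150-base paired reads of polyA libraries to the GRCm38 transcriptome with Kallisto and normalized them in Sleuth. The deposited values are a signal in the sense that they are never negative and not whole: estimated counts per transcript divided by a size factor of the library, and TPM scaled likewise. Column names numbered the 4-month libraries as in the labels. Those of 19 months did not match single samples, so they were named A, B and C. They carry other codes, and 2 Gde2KO columns share the first part of theirs, whose meaning is not given in the sources used here. One read's worth was taken from the steps between low values, which gave the estimated reads. For 46.7% to 62.9% of genes the values came out whole within 0.01, so no count model was used.

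Transcripts were summed to genes, and 0.541% to 0.605% of each library's signal, on transcripts without a gene name, was left out. Genes with at least 5 normalized counts in 47% of the libraries of a fit were tested as log2(value + 0.5) with limma 3.58.1 (R 4.3.3, intensity trend). Calls needed a Benjamini-Hochberg adjusted p under 0.1 over all genes tested and a natural log change over 0.5, the authors' stated thresholds. The interaction needed the adjusted p alone. Genotype was compared within each age on 6 libraries, and age and the interaction on all 12. Fold changes are on the log2(value + 0.5) scale and understate those of low genes. Transcript use was tested in limma on transcripts with a mean of at least 5, and a call also needed a change of over 10 percentage points. Single values were compared by exact permutation tests. The nature of the samples as separate animals comes from the study, and the p-values measure the spread between libraries. The steps were tested on simulated data. The members and gene lists were chosen with earlier results of these data known. Named were the members, Gdpd5, in each list the called genes (at most 6, by adjusted p) or otherwise the gene of lowest adjusted p, and the 5 genes most correlated with the members' mean. Spi1, Csf1, Il34, Ccr2, Ly6c2, Kcne2, Kl, the neutrophil genes and the genes called only with libraries left out were named after their values were seen. Some genes that this rule names are not reported here. Promoters came from RefSeq (GRCm38.p6).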

Additional observations from a re-analysis of the deposited data

How the results depend on the processing

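The members' result for genotype at each age, 0 called, was met under all settings tried. At 4 months this rested in part on the size threshold. The lowest adjusted p over the settings (limma) ran from 0.000265 for Csf1r to 0.0101 for Gpr34, with P2ry12 apart at 0.29. Where the adjusted p was under 0.1 the size threshold was not met. At 19 months the lowest was 0.274, for Sall1. The fits without 4-month WT libraries 1 and 2 kept WT library 3 alone in its group. For the interaction it was 0 under all settings except limma's array weights, which gave 5 of 9. The single call between ages (Gpr34) was lost when Gde2KO library 3 of 4 months and both 19-month libraries of lowest depth were left out, a setting chosen after the data were seen, which gave 0 calls. Counts over all genes were unstable. At 4 months 24 genes were called, against 12 with no filter on low values, 13 in TPM with a pseudocount of 0.05, 12 without the intensity trend, 2934 with array weights, 12 at an adjusted p under 0.05, 14 without WT libraries 1 and 2, and 5 (without Gde2KO library 3) to 1510 (without WT library 3) when single libraries were left out. At 19 months 18 were called, against 7 without the trend, 77 with array weights, 34 without both libraries of lowest depth, and 9 (without WT library A) to 45 (without Gde2KO library B) without single libraries. The interaction had 9 calls, against 5 in TPM, 8744 with array weights, and 6 (without WT library 1 of 4 months) to 2029 (without WT library 3 of 4 months). Between ages 2623 genes were called, against 1720 without 4-month WT libraries 1 and 2 and 2160 to 2750 without single libraries. Transcript use was called in 122 genes at 4 months, against 262 with the Simes test and 83 to 659 (without Gde2KO library 2), and in 21 at 19 months, against 47 with the Simes test and 22 to 59 (without Gde2KO library B). With array weights the 5 other microglia, ligand and macrophage lists had 2 to 4 calls each at 4 months and 6 to 17 for the interaction. The cause of these changes was not tested. Scaling by medians of ratios moved the median of all genes from 0.11 to 0.01 at 4 months and from -0.15 to -0.04 between ages.

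Signs of the members' log2 differences turned in 37 of 675 alternatives, in which they ended within 0.17 of 0. Without 4-month WT libraries 1 and 2, Selplg at 4 months was -0.045, the interactions of Cx3cr1, Csf1r and Selplg were 0.031, 0.0071 and 0.12, and Csf1r between ages was -0.012. Without both libraries of lowest depth, P2ry12 and Tmem119 at 19 months were -0.0038 and 0.086, the interaction of Selplg was 0.0064, and Tmem119 and Selplg between ages were 0.022 and 0.0094. In TPM, Tmem119 at 19 months was 0.00595, the interaction of P2ry12 was 7.85e-05 and Selplg between ages was 0.018. With array weights, Tmem119 at 19 months was 0.0026, the interactions of P2ry12 and Sall1 were 0.084 and -0.058, and Tmem119 and Selplg between ages were 0.17 and 0.068. With medians of ratios, Tmem119, Cx3cr1 and Selplg between ages were 0.012, 8.17e-05 and 0.079. Without Gde2KO library 3 of 4 months and both libraries of lowest depth, the interactions of P2ry12, Sall1 and Selplg were 0.0059, -0.0047 and 0.041, and Tmem119 and Selplg between ages were 0.11 and 0.027. Without single libraries, P2ry12 at 4 months lay between -0.0097 (without Gde2KO library 3) and 0.53. At 19 months the ranges were -0.16 to 0.14 for Tmem119, -0.093 to 0.19 for Cx3cr1, -0.02 to 0.20 for Csf1r, -0.12 to 0.091 for Siglech and -0.033 to 0.19 for Selplg, with the low end in each without Gde2KO library B and the high end without Gde2KO library A. The interaction of P2ry12 lay at -0.40 to 0.14 and Selplg between ages at -0.091 to 0.041.

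With the replicate number as a block at 4 months, 0 members and 21 genes were called, and transcript use was called in 0 members and 97 genes, so the replicate block changed no call of a member. Deviations of same-numbered libraries correlated at 0.0596, 0.00709 and -0.0477, beside -0.144 to 0.111 for libraries of differing number. These values gave no sign of a pairing, and whether same-numbered libraries shared a preparation or a litter was not tested. The 19-month columns carry no replicate number that the genotypes share, and no block was made there. The shallow 19-month libraries limit what can be seen of Gpr34 and Aif1, which rested there on 10 to 33 estimated reads.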
